A study of Mus musculus with 2 samples.

Results

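The cells described here are the epiblast-like cells of mouse embryoids, a minority of 101 barcodes among the 5208 embryoid barcodes that passed the filters. A barcode, the tag that marks the RNA of 1 captured cell, was kept with at least 1000 unique molecular identifiers (UMIs, single counted RNA molecules), at least 500 genes and 1 to 25% of its UMIs from mitochondrial genes. A kept barcode was a member when Nanog, Tdgf1, Sox2, Fgf4, Utf1 and Trh together had at least 5 UMIs and at least 2 times the UMIs of Gata4, Sox17, Pdgfra and Gata6, called the opposing genes. The members were 1.94% of kept embryoid barcodes (95% Clopper-Pearson interval 1.58 to 2.35). The 5107 other kept embryoid barcodes are the background within the library. The same rule took 268 of 1019 kept blastocyst barcodes, or 26.3% (23.6 to 29.1).

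The study set embryoids beside the 3 lineages of the blastocyst at embryonic day 4.5, with 1 library of each. The embryoids joined ES cells, derived from the Lifeact-RFPRuby mouse strain and kept with Lif, the MEK inhibitor PD0325901 and the GSK3 inhibitor CHIR99021, with XTE cells, which the series title calls trophectoderm-like. These XTE cells were reprogrammed from ES cells of a Gata6-H2B:venus line and kept in CHIR99021, BMP4, Fgf4 with heparin, and Activin. For each preparation 10000 ES cells and 50000 to 80000 XTE cells spent 48 h in AggreWell plates and 48 h in repellent plates. The blastocyst library came from whole B6C3F1 embryos. Both samples were dissociated with TrypLE, and 6000 cells each went into the BD Rhapsody whole transcriptome kit. The labels do not say how many embryoids, lines or embryos were pooled. No deposited column tells which barcodes came from ES and which from XTE cells, and the origin of the members was not tested. The 9 trophectoderm markers summed to 626 CPM (the unit explained with the levels below) in the other embryoid barcodes. Most of this was keratin RNA, Krt18 at 470.4 and Krt8 at 121, while Gata3 stood at 2.66, Elf5 at 0.216 and Dppa1 at 0 UMIs. The blastocyst barcodes under the rule, chosen on epiblast markers, had 385 CPM of the 9. Krt18 alone had 995 CPM in the other blastocyst barcodes.

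The epiblast is the founder tissue of the embryo proper, and ES cells are its counterpart in culture. Its cells hold pluripotency through a network around Pou5f1, Sox2 and Nanog, and secrete Fgf4, to which the neighbouring primitive endoderm responds. As implantation nears, naive factors such as Klf4, Tfcp2l1 and Esrrb give way to formative factors such as Otx2, Pou3f1 and the de novo DNA methyltransferases, and the cells signal through Nodal with its coreceptor Tdgf1. Utf1 is a chromatin factor of pluripotent cells and Trh encodes the precursor of thyrotropin-releasing hormone. Gata4, Gata6, Sox17 and Pdgfra mark primitive endoderm.

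The RefSeq promoters (GRCm38.p6, 250 bases before to 50 after a start) of 3 rule markers are shown because they differ in the letters bound by the POU and SOX factors of the pluripotency network. Capitals mark matches to TTTGCAT, the octamer part, or CATTGT, the SOX core, searched on both strands. Their composite, TTTGCAT followed after 1 base by the reverse complement of the SOX core, overlaps matches to both. All 6 rule markers were found in the table by symbol.
Nanog, chr6:122707315-122707614, plus strand: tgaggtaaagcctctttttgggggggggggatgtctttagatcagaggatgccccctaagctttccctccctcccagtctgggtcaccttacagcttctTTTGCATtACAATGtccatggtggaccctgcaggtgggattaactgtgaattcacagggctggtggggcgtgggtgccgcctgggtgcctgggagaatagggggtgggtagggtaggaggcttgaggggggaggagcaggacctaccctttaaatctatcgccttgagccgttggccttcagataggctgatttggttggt
Sox2, chr3:34649745-34650044, plus strand: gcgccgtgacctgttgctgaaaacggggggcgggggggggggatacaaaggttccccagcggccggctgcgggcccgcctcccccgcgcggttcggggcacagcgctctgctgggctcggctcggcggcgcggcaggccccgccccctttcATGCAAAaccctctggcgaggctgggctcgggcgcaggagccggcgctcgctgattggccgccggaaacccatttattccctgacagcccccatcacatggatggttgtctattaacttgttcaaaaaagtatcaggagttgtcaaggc
Trh, chr6:92244601-92244900, minus strand: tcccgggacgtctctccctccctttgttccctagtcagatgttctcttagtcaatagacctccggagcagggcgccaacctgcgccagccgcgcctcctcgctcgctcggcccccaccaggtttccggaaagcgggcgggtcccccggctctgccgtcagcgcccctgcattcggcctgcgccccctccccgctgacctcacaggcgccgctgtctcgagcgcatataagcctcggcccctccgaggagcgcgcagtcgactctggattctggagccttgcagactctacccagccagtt

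The composite began 151 bases before this Nanog start and 75 before the other listed Nanog start. Both windows overlap and hold the same site. They were the only 2 of 32851 promoters, or 0.00609%, with the composite, which makes 1 of 27025 genes. TTTGCAT was present in 4.63% of promoters and CATTGT in 12.6%. Sox2 had the reverse complement of TTTGCAT, 99 bases before its start, and Trh held none of the 3. Of the 15 genes named below as higher in the members, 9 were in the table; Pipox held TTTGCAT and Esrrb held CATTGT. A match describes letters only.

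Members ranged from 1466 to 14388 UMIs with a median of 6288, against medians of 4799 in the other embryoid barcodes and 10227.5 in the blastocyst barcodes under the same rule. They summed to 664408 UMIs. Levels below are in CPM, which scales such summed counts to an equal total per profile. Intervals are exact 95% limits for counting error alone, since 1 library per group leaves no replicate spread and no test. Embryoid and library cannot be told apart from blastocyst and library. Of the barcodes, 9 occurred in both files and 0 of these were members.

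The 6 markers chose the members, so their levels describe the rule. Trh had 1425 CPM in the members (interval 1336 to 1519), 3.63 in the others and 461 in the blastocyst barcodes under the rule. Its UMIs per member ran from 0 through a median of 7 to 41. Tdgf1 had 1007, 1.54 and 1565 CPM, with 0, 5 and 24 UMIs as the lowest, median and highest member. Both were seen in nearly all members, Trh in 96 and Tdgf1 in 97.

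Utf1 had 712 CPM in the members, 3.31 in the others and 909.8 in the blastocyst barcodes, and 95 members held a UMI. Sox2, a core pluripotency factor, had 531, 1.83 and 611 CPM and a UMI in 82 members. Fgf4 had 182, 0.251 and 242 CPM and a UMI in 61 members. Nanog had 167, 1.04 and 336 CPM and a UMI in 48 members, with a highest count of 9. Trh alone of the 6 stood higher in the embryoid members than in the blastocyst barcodes. Both groups were chosen on the sum of these 6, so this describes the chosen barcodes only.

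Depth differed between libraries, so detection was also read after thinning each barcode to 2000 UMIs, which left out 3 members, 298 others and 6 blastocyst barcodes. Nanog was then seen in 26.5% of members against 47.3% of blastocyst barcodes, and unthinned in 47.5% against 82.5%. Trh went the other way, with 80.6% against 45.04% thinned and 95.05% against 78.4% unthinned. In the other embryoid barcodes, which the rule left low in these markers, a thinned UMI of Nanog was seen in 0.333% and of Trh in 0.354%.

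**Figure D1:**
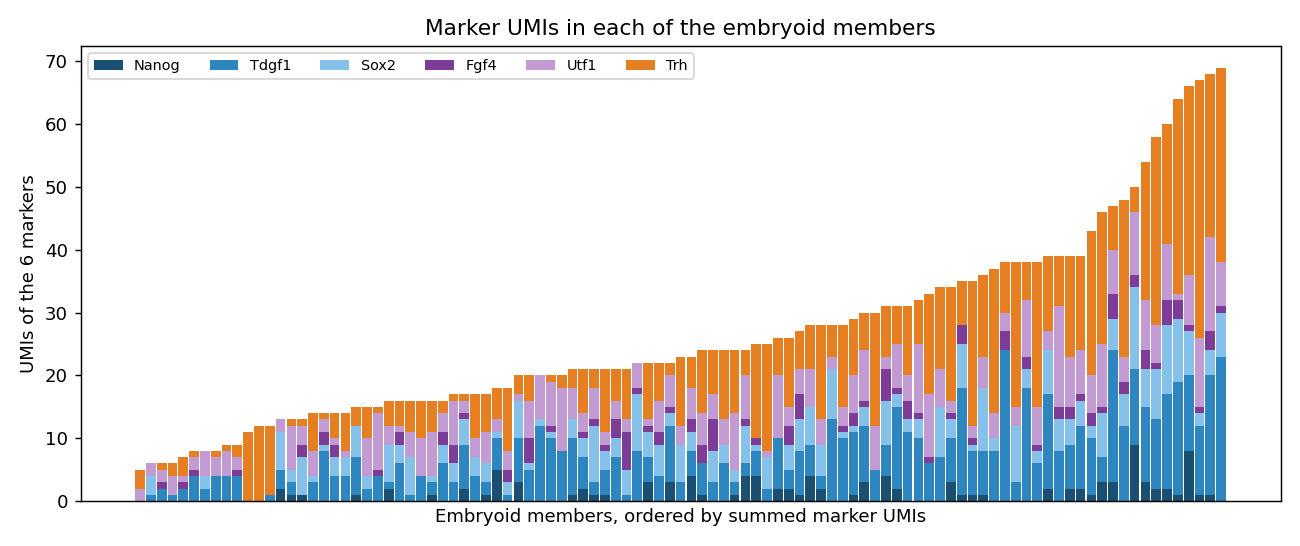
UMIs of the 6 markers (y axis, stacked by gene) in each of the 101 members (x axis, ordered by their sum). The sums run from 5 to 69 with a median of 23, and 3 bars near 11 to 12 UMIs consist of Trh alone or Trh with 1 UMI of Tdgf1.

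All 6 markers were present together in 29 members, 5 in 36, 4 in 23, 3 in 9, 2 in 2 and 1 in 2. Few barcodes lay at the threshold of 5 UMIs: 1 member had exactly 5 and 3 had 6, while 2 barcodes with 4 and 2 with 3 met the ratio and stayed outside. Of the others, 4957 had 0 marker UMIs. At the ratio, 3 members lay between 2 and 3, and 14 barcodes had 5 or more marker UMIs but fell below 2. Those 14 had a median of 9813 UMIs, above the members' median.

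The label did not hold for 3 members, singled out after their values were seen. They carried 11, 12 and 11 UMIs of Trh and 0, 0 and 1 UMI of the other 5 markers. Emb, a cell surface glycoprotein gene, had 25, 55 and 15 UMIs in them, where the median member had 2. Amot, an angiomotin gene, had 6, 20 and 11, and only 7 of the 101 members held any Amot UMI. Spink3, a secreted protease inhibitor at 901 CPM in the other embryoid barcodes, had 24, 72 and 0. Their naive pluripotency list, described below, gave 0, 3 and 6 UMIs against a median of 25 for all members. These 3 are therefore referred to as Trh-alone barcodes, and 1 of them had 0 opposing UMIs.

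**Figure D2:**
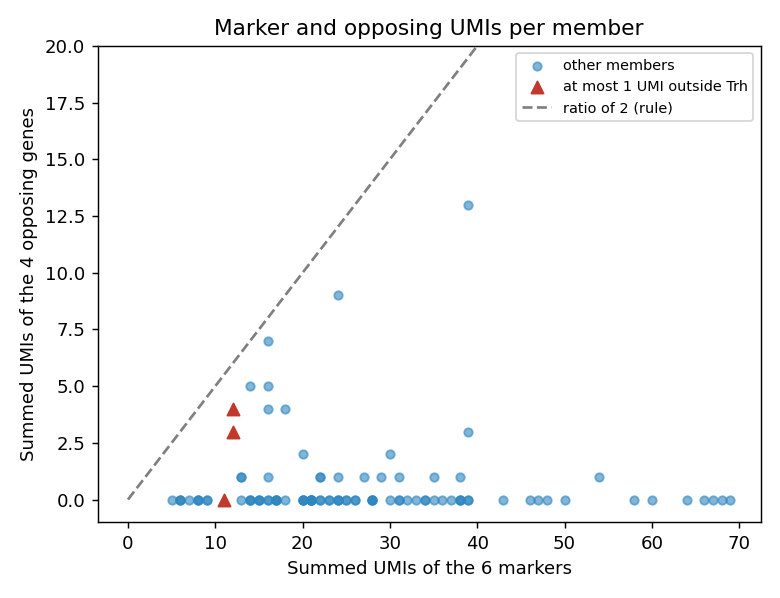
Summed UMIs of the 4 opposing genes (y axis) against summed UMIs of the 6 markers (x axis) per member. The dashed line is the ratio of 2 set by the rule, triangles are the 3 Trh-alone barcodes, and 77 of 101 members lie at 0 opposing UMIs.

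The opposing genes, also part of the rule, had 0 UMIs in 77 members and 1 to 13 in 24, of which 5 had at least 5. Gata4 had 43.7 CPM in the members and 529 in the others. Sox17 had 30.1 and 353, Pdgfra 19.6 and 305, and Gata6 16.6 and 160.5. The members with opposing UMIs were slightly deeper, with a median of 7360 UMIs against 6057. No doublet caller was run. For the genes most affected, the level in the 77 is given beside that in all 101.

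Epiblast markers outside the rule were detected in 100 of the 101 members. Pou5f1, which defines pluripotency, was counted at a low level: 37.6 CPM (24.4 to 55.5; 25 UMIs in 23 members) against 0.144 in the others. The blastocyst barcodes under the rule also had only 52.2 CPM of it. Counting settings and the annotation were not given in the sources used here, so genes with near-identical copies, such as Pou5f1, Dppa3 and Dppa5a, are uncertain in level. Of the markers of other cell types, the 8 of primitive endoderm outside the rule summed to 718 CPM and were seen in 72 members, with 240.2 CPM in the 77 without opposing UMIs and 11501 in the others. The 9 trophectoderm markers summed to 90.3 CPM in 33 members, with Elf5, Gata3, Krt7 and Dppa1 at 0. Sox1 and Pax6, the neural markers, had 0 UMIs; the floor of 3 UMIs is 4.52 CPM.

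Genes outside the rule were then described in the members against the other embryoid barcodes. A ratio is the log2 ratio after adding 5 CPM to each level, over 6919 genes with a mean of at least 20 CPM. The members exceeded the others by 2-fold or more at 10.3% of genes (711) and stood below them by as much at 17.2% (1190). The median ratio was -0.01. Because the members were picked on genes of the same barcodes, these are descriptions of the chosen cells. For a gene near 0 the ratio with CPM added can lie outside the interval of the counts.

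The core and naive pluripotency list had 25 genes, of which 23 could be compared. Of these, 16 passed 2-fold upwards and 2 downwards, and the median ratio was 3.17. Esrrb, an orphan nuclear receptor of the naive network, had 215 CPM against 0.503, and 59 members held a UMI. Klf2, a Kruppel-like factor, had 486 against 23.5. Dppa5a, an RNA-binding protein of pluripotent cells, had 1194 against 73.7. Zfp42, known as Rex1, had 272 against 12.1, and Tdh, the threonine dehydrogenase of mouse ES cells, 417 against 27.2. These 5 stood far above the background level.

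Klf4 was among the exceptions, at 173 CPM in the members against 535 in the others (ratio -1.60). The other embryoid barcodes, of which 4837 of 5107 held opposing UMIs, also had Sall4 at 299.8 CPM against 293 in the members, and Tbx3 at 98.6 against 70.7. Stat3, the transcription factor downstream of Lif, was lower in the members at 28.6 against 69.9.

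Of the formative and primed list, 13 of 23 genes could be compared; 10 were at least 2-fold higher, 0 lower, and the median ratio was 2.98. Otx2, the homeobox factor of the formative state, had 361 CPM against 8.16 and was seen in 77 members. Dnmt3b had 522 against 61.8, and the ERK-induced ETS factor Etv5 194 against 11.03. The zinc finger factor Zic5 had 122 against 9.34. Primed genes stood near 0: Fgf5 had 5 UMIs in 4 members, Sox3 2 UMIs, and Cdh2 had 0 against 4.31 CPM.

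**Figure D3:**
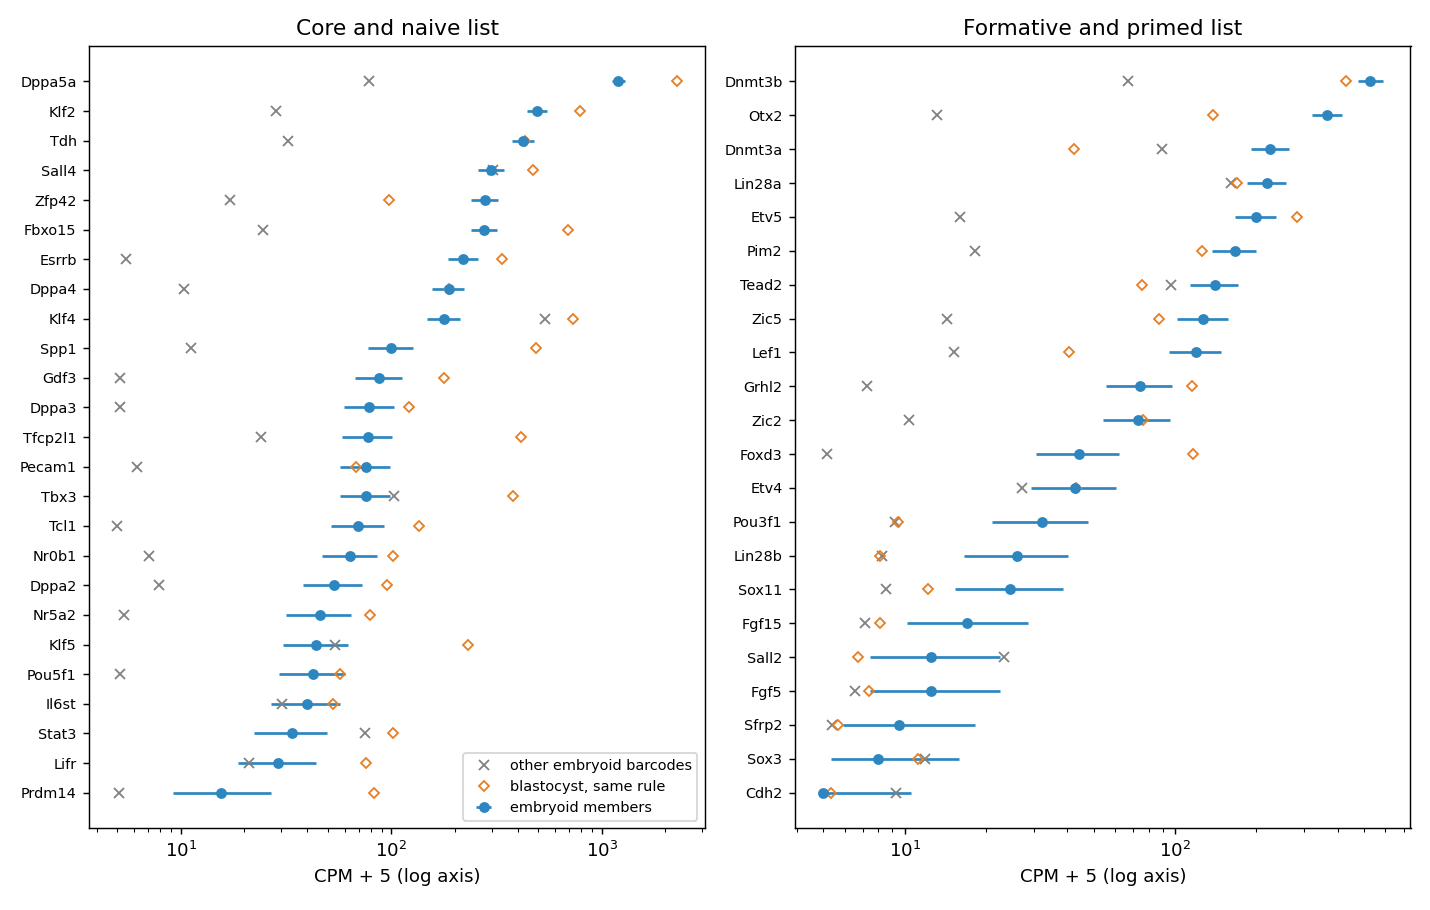
Levels (x axis, CPM + 5, log axis) of naive (left) and formative (right) list genes in embryoid members (circles with exact Poisson 95% limits), other embryoid barcodes (crosses) and blastocyst barcodes under the same rule (diamonds). Esrrb and Otx2 have members far right of the crosses, while Klf4 lies left of both other symbols.

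Naive and formative genes were found in the same barcodes. Thinned UMIs of both lists were present in 92 of 98 members, and 6 had the naive list alone. Any UMI counted here, and the lists hold genes such as Klf4 and Dnmt3b that the other embryoid barcodes also had. No share of other barcodes was computed, so the count does not describe a combined state of the members. Unthinned, Esrrb and Otx2 were detected together in 44 members, Esrrb alone in 15, Otx2 alone in 33 and neither in 9. Across the 98 thinned members the 2 lists had a Pearson r of -0.17 (Spearman rho -0.10), which is too weak in such sparse counts to describe a relation.

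DNA methylation genes were higher in the members in 5 of 9 cases and lower in 1, with a median ratio of 1.33. Dnmt3l, the cofactor of the de novo methyltransferases, led the named genes at 625 CPM (566 to 688) against 1.33. It was detected in 92 members. Dnmt3a had 219.7 against 84.4, Tet1, which oxidises methylated cytosine, 230.3 against 35.6, and Tet3 15.1 against 84.0. Of 16 chromatin genes 9 were higher and 0 lower (median 1.14), among them the Polycomb cofactor Jarid2 (306 against 46.2 CPM) and the DNA helicase gene Hells (494 against 112).

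Nodal, the ligand, had 172 CPM (142 to 206) against 1.01, and its inhibitor Lefty2, which is also its target, 248 (212 to 289) against 0.395. They were detected in 50 and 53 members, and in 27 together. Receptor genes were low in both, with Acvr1b at 19.6 against 34.8 and Acvr2a at 12.04 against 20.4. The effectors Smad2 and Smad3 had 33.1 and 9.03 CPM against 91.9 and 45.8, and the convertase Furin 12.04 against 57.5. Over the list 2 of 9 genes were higher, 4 lower, with a median of -0.70 (-0.16 in the 77 members with 0 opposing UMIs).

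For FGF signalling, the members held the ligand Fgf4 of the rule and the receptor Fgfr1, at 64.7 CPM against 11.5. Fgfr2 was at 3.01 against 38.4, and Fgfr3 and Fgfr4 had 0 UMIs in the members. Of 13 receptor and ERK target genes 6 were higher, 2 lower (median 0.98). Ccnd1, the cyclin D1 gene, had 200.2 against 23.9, and Spry4, a feedback inhibitor, 107 against 36.8. Egr1, an immediate early ERK target, was lower, at 545 against 1312. Of 7 Wnt targets 5 were higher and 0 lower (median 1.39), with Lef1 at 114 against 10.3 and Axin2, a feedback inhibitor, at 70.7 against 23.9.

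BMP pathway and ID genes went the other way, with 0 of 8 higher and 6 lower (median -1.47). Id2, an inhibitor of bHLH factors, had 31.6 CPM (8.35 in the 77 members without opposing UMIs) against 176, and Bmpr1a, a BMP receptor, 119 against 275. Id3 was not among them, at 206 against 184.

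Of the S phase list 8 of 15 genes were higher and 0 lower (median 1.06), with the replicative helicase subunit Mcm5 at 546 CPM against 149. The G2 and M list had 4 of 18 higher (median 0.62), with the mitotic cyclin Ccnb1 at 515 against 224. Hypoxia genes were lower in 7 of 11 and higher in 1 (median -1.29), for instance the angiogenic factor Vegfa at 72.2 (41.8 in the 77) against 374. Glycolysis genes were mixed, 3 of 14 higher and 2 lower, beside 10.3% and 17.2% of all genes compared. Of 20 respiratory chain genes 0 passed 2-fold in either direction. Targets of p53 were lower in 2 of 10, Cdkn1a and Ccng1, near the 17.2% of all genes compared, and higher in 0.

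Imprinted genes expressed from the paternal allele were lower in 6 of 10 and higher in 1. Igf2, a fetal growth factor, had 191 CPM against 2325, with 110 of its 127 UMIs in the 24 members with opposing UMIs and 35.5 CPM in the 77. Snrpn, a splicing protein gene, was the one higher, at 138 against 13.5. Of the maternally expressed genes 3 of 7 were lower and 0 higher, H19 the most, at 15.1 (6.27 in the 77) against 676. Immediate early genes were lower in 9 of 11 (median -1.40); Jun had 167 CPM against 1621. Jun had only 43.9 CPM in the 77 members with 0 opposing UMIs.

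Of the further named genes, Stmn2, a microtubule-binding protein of neurons, had 253 CPM (216 to 294) in the members against 0.467. Ina, an intermediate filament gene of neurons, had 151 against 1.80. Both are known from neural tissue, while Sox1 and Pax6 were at 0 here. The blastocyst barcodes under the rule had 144 CPM of Stmn2 and 40.5 of Ina, against 17.9 and 6.88 in the other blastocyst barcodes. Pla2g1b, a secreted phospholipase, had 167 against 0.539, and Morc1, a germ cell ATPase of transposon silencing, 155 against 1.33. Metabolic genes among them were the transaminase Bcat1 (449 against 16.7), the epoxide hydrolase Ephx2 (113 against 0.755), the arginine transporter Slc7a3 (342 against 13.2) and Pipox (101 against 1.15), a peroxisomal oxidase. Dppa4, a chromatin factor of pluripotent cells, had 182 against 5.32.

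The lowest ratio among the named genes was that of H19. Col4a1, a basement membrane collagen, had 205 CPM (172 to 242) against 4196, but 118 of its 136 UMIs lay in the 24 members with opposing UMIs and the 77 had 37.6 CPM. Lama1, a laminin chain, had 18.1 (2.09 in the 77) against 495, and Dab2, an endocytic adaptor, 49.7 (20.9) against 980. Gpx3, a secreted peroxidase, had 34.6 (10.4 in the 77) against 773, and Krt18, a keratin of simple epithelia, 21.1 (4.18) against 470.4. Rbp4, the retinol carrier, had 7.53 against 329. Ccnd2, cyclin D2, had 7.53 (2.09 in the 77) against 249.7. Cpm, Lgmn, Morc4 and Habp2 had 6.02, 25.6, 7.53 and 4.52 against 203, 533, 209.6 and 164. In the 77 members Cpm and Morc4 had 0 UMIs and Lgmn 8.35 CPM. The 77 were split off by endoderm genes of the rule. Lower levels of such genes in them can follow from that choice and give no separate support.

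The primitive endoderm list outside the rule had 0 of 22 genes higher and 21 lower, with a median of -3.64. The level of this RNA is given apart for members with and without opposing UMIs. That split uses endoderm genes of the rule, so a difference between them can follow from the split. Over 20 endoderm genes with at least 100 CPM in the others, the level in the members was a median of 6.501% of that level (2.29 to 50.3). In the 77 members with 0 opposing UMIs it was 1.99% (0 to 44.5), and in the 24 with them 19.3% (3.28 to 65.2). Sparc, a matrix protein of parietal endoderm, had 175 CPM in the 77, 1056 in the 24 and 5418 in the others. S100g, a calcium-binding protein, had 6.27, 555 and 1336. Apoe was the highest of the 20 in share, at 537, 787 and 1206. The part of mixed barcodes and of free RNA in these values was not tested.

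**Figure D4:**
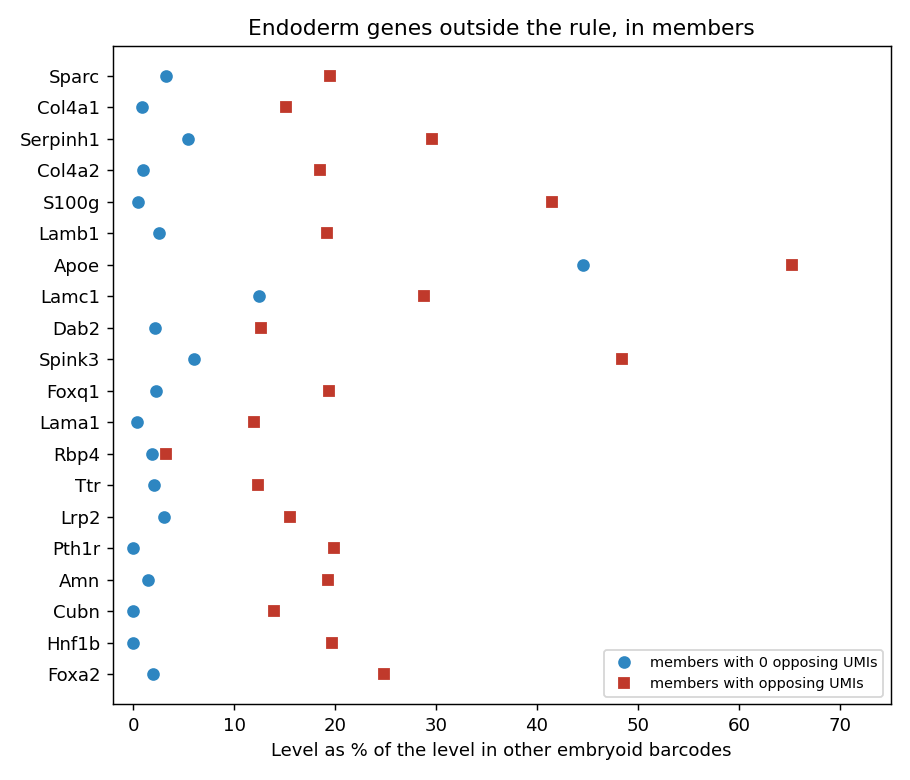
Level of 20 endoderm genes outside the rule as % of their level in the other embryoid barcodes (x axis), for the 77 members with 0 opposing UMIs (circles) and the 24 with opposing UMIs (squares), genes ordered by level in the others. Every square lies right of its circle, and Apoe has the highest circle at 44.5%.

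Markers of further lineages were held by few members. The 6 mesenchyme markers summed to 45 UMIs in 4 members, all with opposing UMIs, and 1 member held 25 of them. That gives 0 UMIs in the 77 members against 132 CPM in the others. T, the mesoderm factor Brachyury, had 14 UMIs in 7 members, 6 of them in 1 member with 0 opposing UMIs. Mixl1 and Mesp1 had 1 UMI each. Dazl, an RNA-binding protein of germ cells, had 33 UMIs in 17 members, with up to 8 in 1 and 13 UMIs in the 77, while the germ cell factors Prdm1, Nanos3 and Dnd1 summed to 13 UMIs. The Y-linked Ddx3y had 27 UMIs, and Xist, the RNA of the inactive X chromosome, had 2.

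Variation among the members was described on UMIs thinned to 2000. Over 2038 genes with a mean of at least 0.2, the ratio of variance to mean had a median of 1.05, near the value of 1 for pure counting. Spink3 (42.1), Emb (12.1) and Amot (10.2) led, and their highest counts sat in the Trh-alone barcodes: 72 of 107 Spink3 UMIs were in 1 of them. Over the 74 thinned members with 0 opposing UMIs these ratios were 0.986, 1.29 and, with 0 Amot UMIs left, 0. The Trh-alone barcode with 0 opposing UMIs is not among the 74, since its 1466 UMIs were too few for thinning. Lgals1, Gpc3, Igf2, Sparc and Jun, with ratios of 5.07, 5.22, 2.98, 2.96 and 3.31, dropped to 1.34, 1.19, 0.932, 0.805 and 1.35 in those 74. Slc16a1, a lactate transporter gene, went from 2.80 to 1.05.

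The metallothionein genes and Trh kept their variation in those 74 members. Mt2, which binds zinc and copper, had a ratio of 5.26 over all 98 and 4.59 in the 74, and Mt1 of 4.61 and 4.65. Unthinned, Mt2 ran from 0 through a median of 32 to 204 UMIs per member, and Mt1 from 0 through 14 to 119. Across the 98 members thinned Mt1 and Mt2 had an r of 0.71 (rho 0.64), and Mt2 with total UMIs an r of 0.01. Mt2 with the naive list gave an r of 0.41 (rho 0.37), and with the formative list -0.12. The points share 1 library, and thinned counts of 1 barcode compete for the same total. Trh had a ratio of 2.82 in the 98 and 2.83 in the 74, with r of 0.11 against Tdgf1 and 0.10 against Otx2.

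Cell cycle genes varied too. Ube2c, a ubiquitin-conjugating enzyme of mitosis, had a ratio of 2.61, and the topoisomerase Top2a of 2.05. The summed G2 and M list ran from 0 to 31 thinned UMIs per member (median 8) and the S phase list from 0 to 16 (median 6). They were inversely related across the 98 members, with an r of -0.46 (rho -0.42).

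The members were also set against the blastocyst barcodes under the same rule. Over 6434 genes with a mean of at least 20 CPM, the embryoid members were above by 2-fold or more at 7.37% (474) and below by as much at 6.89% (443). The median ratio was 0.02. The rule set no limit on trophectoderm genes, and 48 of the 268 blastocyst barcodes held UMIs of Cdx2, Elf5, Gata3, Krt7 or Dppa1. The 9 trophectoderm markers summed to 385 CPM in the blastocyst barcodes and 90.3 in the members. A comparison of restricted barcodes, chosen after seeing the data, was set beside it. It took 76 members and 179 blastocyst barcodes with 0 opposing UMIs and at least 2 UMIs of the 5 markers other than Trh, the latter also without those 5 trophectoderm genes. There 515 of 6359 genes (8.10%) were higher and 507 (7.97%) lower. The 9 trophectoderm markers summed there to 62.8 CPM in the members and 71.1 in the blastocyst barcodes, the latter chosen without those 5 genes.

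Naive genes stood lower in the embryoid members. Of 25 compared, 10 were lower by 2-fold or more and 1 higher (median -0.84; restricted, 11 lower, 1 higher, -0.88). Klf4 had 173 CPM (143 to 208) against 726 (695 to 757), a ratio of -2.04. Tfcp2l1, a factor of the naive network, had 72.2 (53.3 to 95.8) against 409 (386 to 433). Klf5 had 39.1 against 225, the T-box factor Tbx3 70.7 against 374, and Prdm14, a repressor of differentiation genes, 10.5 against 77.6. The intervals of these genes cover counting error alone and leave out the spread between libraries.

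Others of the list were closer. Esrrb had 215 CPM (181 to 254) against 331 (310 to 352), and Klf2 486 against 778. Tdh had 417 (369 to 469) against 427 (404 to 452) and Dppa4 182 against 183, where counting error covers the difference. Fbxo15, an F-box gene of ES cells, had 271 against 685, and the growth factor Gdf3 82.8 against 172. The signalling genes Stat3 and Lifr, the Lif receptor, were lower at 28.6 and 24.1 against 96.5 and 71.1. Zfp42 was the one gene higher, at 272 (234 to 315) against 92.7 (82.0 to 104).

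Formative genes had 3 of 14 higher and 1 lower, with a median of 0.33 (restricted, 4 higher, 1 lower, 0.37). Dnmt3a had 219.7 CPM (186 to 258) against 37.4 (30.7 to 45.2), a ratio of 2.40. Otx2 had 361 (317 to 410) against 133 (120.3 to 147), and Lef1, a transcription factor of Wnt signalling, 114 against 35.7. Foxd3 was lower, at 39.1 (25.6 to 57.3) against 111 (99.5 to 124). Dnmt3b was higher by less, at 522 against 423 (ratio 0.30). Pou3f1, known as Oct6, was below the level for comparison, at 27.1 CPM (18 UMIs in 14 members) against 4.46.

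**Figure D5:**
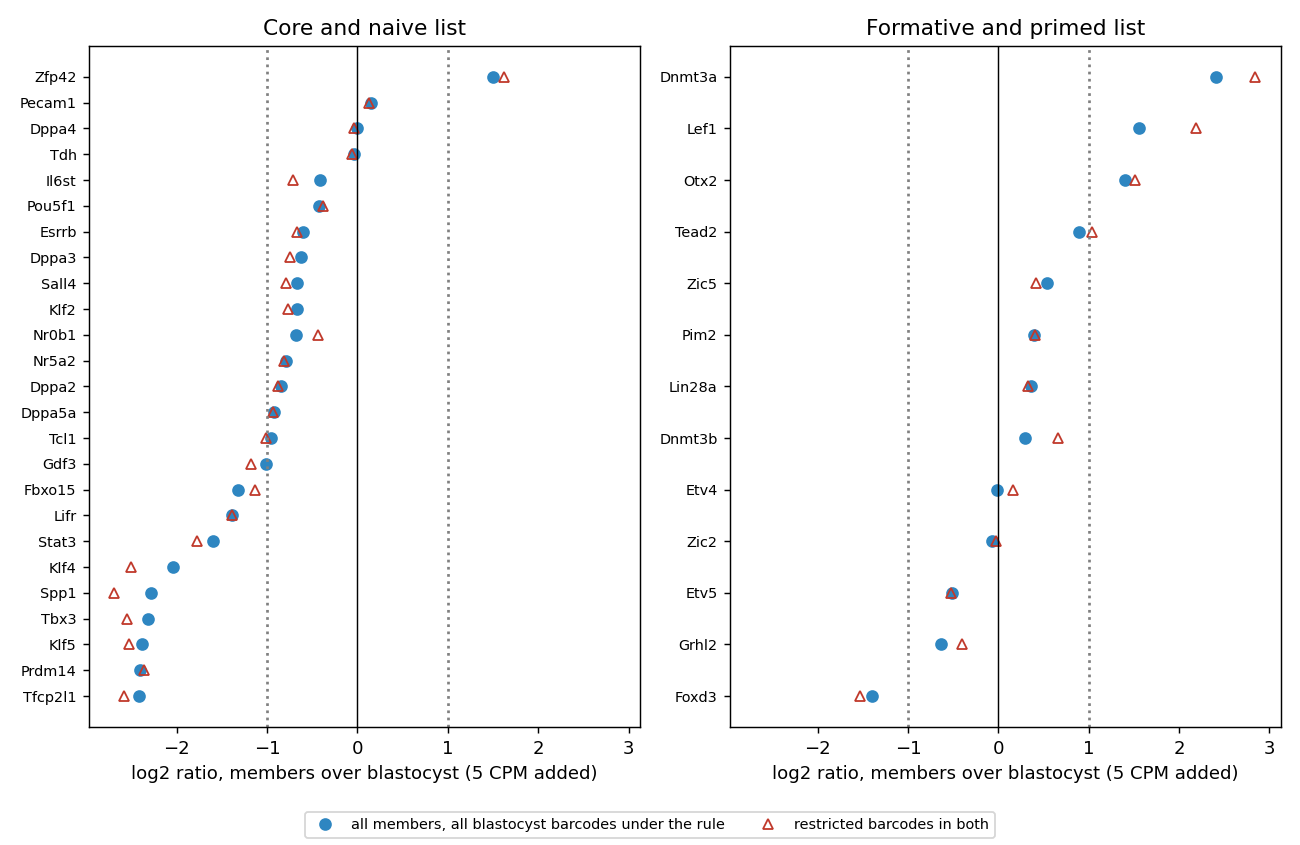
Log2 ratio of members over blastocyst barcodes under the same rule (x axis, 5 CPM added) for naive (left) and formative (right) list genes that were compared; circles use all barcodes under the rule, triangles the restricted 76 and 179. Dotted lines mark 2-fold; Zfp42 alone lies right of it on the left panel, and Dnmt3a, Lef1 and Otx2 do on the right, joined by Tead2 among the triangles.

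Dnmt3l had 625 CPM against 556, while Tet2 was lower at 28.6 (17.2 to 44.7) against 185 (170.1 to 202). Nodal had 172 (142 to 206) against 77.3 (67.5 to 88.1), and its inhibitor Lefty2 248 against 407. Pcsk6, a convertase that processes Nodal, had 21.1 against 101. Of the 8 BMP and ID genes 4 were lower and 1 higher. Bmp4, the ligand, had 12.04 (2.09 in the 77) against 76.9 and Id3 206 against 455. Id1, below the level for comparison, had 24.1 (10.4 in the 77) against 0.687.

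Glycolysis genes were higher in 9 of 14 and lower in 0 (median 1.18; restricted, 8 and 1.14). Ldhb, a lactate dehydrogenase subunit, had 170.1 CPM (140.2 to 204) against 3.78 (1.89 to 6.76), and it was detected in 61 members. Ldha had 999 against 327, the enolase Eno1 1383 against 327, and Pgk1, phosphoglycerate kinase, 333 against 56.3. Hypoxia genes were higher in 6 of 10 (restricted, 5 higher and 1 lower), with the kinase Pdk1 at 214 against 51.2. Targets of p53 were higher in 6 of 8 in both comparisons (medians 1.82 and 1.83): the CDK inhibitor Cdkn1a had 226 (191 to 265) against 30.2, and cyclin G1, Ccng1, 268 against 45.7. Of all genes compared, 7.37% were higher (restricted, 8.10%). Against the other embryoid barcodes the members had medians of -1.29 for hypoxia, -0.73 for p53 targets and 0.21 for glycolysis. The excess in these lists was thus not particular to the members.

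Maternally expressed imprinted genes were higher in 4 of 7 and lower in 1. Meg3, a noncoding RNA, had 275 CPM (237 to 318) against 48.4, and Rian and Mirg of the same locus 69.2 and 97.8 against 12.02 and 19.2. The paternally expressed Peg10 had 297 against 16.5, and 814 in the other embryoid barcodes. H19 was the one lower, at 15.1 against 230.1 CPM, but it stood at 1010 CPM in the 48 blastocyst barcodes with trophectoderm UMIs. In the restricted barcodes H19 was 6.28 against 5.04.

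Further genes named as higher were Bex4 (181 against 4.46 CPM), the glypican Gpc3 (167 against 9.27), the aminotransferase Oat (211 against 15.5), the glutamine transporter Slc38a1 (224 against 17.2), and the cytoskeletal genes Hook1 (99.3 against 7.56) and Psrc1 (217 against 23.0). All 6 stayed at least 2-fold higher in the restricted barcodes, where Gpc3 had 85.9 against 11.8. The other embryoid barcodes had more than the members of Bex4 (295 CPM), Gpc3 (1188), Oat (511) and Slc38a1 (893). They had 215 of Psrc1 and 48.6 of Hook1. S100g was at least 155-fold higher, with 160 CPM against 0 UMIs and a floor of 3 UMIs, and Spink3 had 161 against 0.343. Few members held them, 9 and 8, and in the restricted 76 they had 3 and 2 UMIs. The primitive endoderm list was likewise 6 of 12 higher over all members, and 0 of 6 higher, 2 lower in the restricted barcodes.

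Genes named as lower included Khdc3, a maternal-effect gene of oocytes and early embryos, with 0 UMIs in the members against 189 CPM, at least 41.8-fold. Mylpf, a myosin light chain, had 119 CPM (94.1 to 148) against 1234 (1194 to 1275). Pigp, of glycolipid anchor synthesis, had 27.1 against 646, and Calcoco2, an autophagy receptor, 7.53 against 209. Lgals3, a galectin, had 6.02 against 231. Aqp3, a water channel, had 1 UMI, a ratio of -4.37 with an interval of the counts from -11.74 to -3.94. AI662270 and Baiap2l1 had 2 and 3 UMIs, with ratios of -3.70 (-8.10 to -3.18) and -3.45 (-6.74 to -2.89). These genes stayed at least 2-fold lower in the restricted barcodes. The difference was not particular to the members. In the other embryoid barcodes Khdc3 had 1 UMI and Calcoco2 0 UMIs, against 152 and 437 CPM in the other blastocyst barcodes. Aqp3, Lgals3 and Mylpf had 1.33, 5.82 and 7.04 CPM against 152, 244 and 100 there. AI662270, Baiap2l1 and Pigp had 0.395, 17.3 and 56.1 against 75.1, 164 and 501.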

How the data were processed

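Polyadenylated RNA of single cells was measured in 1 embryoid and 1 blastocyst library. The deposited files hold raw UMI counts per gene symbol and barcode, listed where 1 or more, per the file headers. Per the submitters' processing notes, the tools were STAR 2.7.1a, featureCounts 1.6.4 of Subread, bcl2fastq 2.19.1.403 and UMI-tools 1.0.1, with the build mm10. Not given in the sources used here were settings, annotation and the rule for calling cells. Depth was 28923930 UMIs over 5546 embryoid barcodes and 11047555 over 1288 blastocyst barcodes.

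Counts were summed over barcodes and scaled to CPM. Intervals were exact at 95% (Poisson, Clopper-Pearson, conditional binomial for ratios) and cover counting error only. No test across samples was possible with 1 library a group. Thinning used seed 1. Of the embryoid barcodes 146 fell under the mitochondrial minimum, and 2 of these would have been members. The summing and ratios were tested on simulated data.

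The members and the 32 gene lists (459 genes, 446 matched) were chosen with earlier results of these data known. Named genes were the 15 highest and 12 lowest ratios against other embryoid barcodes and the 10 highest and 10 lowest against the blastocyst, at a mean of at least 50 CPM, outside the 10 rule genes and without symbols starting Gm, Rp or mt- or ending Rik (2 and 1 passed over); the 12 most variable genes; the rule genes; and list members. The restricted barcodes, the 3 Trh-alone barcodes, and the rarer markers named with their UMIs were picked after values were seen. Genes that are counted in these lists but not reported here are left out of the text and plots. Promoter sequences came from RefSeq, GRCm38.p6. Software was scipy 1.17.1, pandas 2.3.3, numpy 2.4.6 and matplotlib 3.10.9 under Python 3.11.15. Alternatives varied the rule, filters, added CPM, scaling and comparison barcodes.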

Additional observations from a re-analysis of the deposited data

How the results depend on the processing

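The number of genes past 2-fold moved by over 1.5 times under 3 settings. With 20 CPM added, 450.0 genes were higher in the members than in other embryoid barcodes, and 269 higher and 272 lower than in the blastocyst barcodes. With a mean of at least 50 CPM, the counts were 429 higher and 616 lower against the others, and 206 and 230.0 against the blastocyst. With no low filter they were 1198 and 1894, and 1120.0 and 874. Each follows from which genes were compared or how far low genes were shrunk. The member share was 1.48% with only the 77 members without opposing UMIs.

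Settings of the rule gave 105 members at a minimum of 3 marker UMIs, 91 at 10, and 92 both at a ratio of 5 and without Trh. Over all settings the named genes changed sign in 1 of 806 log2 ratios, H19 against the blastocyst at 0.17 in the restricted barcodes, and 68 others moved by more than the mean arm of their counting interval (by over 1 where it had an open end). List medians changed sign in 24 of 912 values and 47 moved by over 0.5, and the germ cell list median against the others was -2.20 at 50 CPM. The median of ratios moved all genes by under 0.1. Settings chosen after seeing the data were the members without opposing UMIs, those without the 3 Trh-alone barcodes, the restricted barcodes, and others without mixed barcodes. No paired analysis was possible because each group had 1 library. With 664408 UMIs in the members, the floor of 3 UMIs for a gene with 0 is 4.52 CPM.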
